A study of Mus musculus with 16 samples.

Results

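Corticosteroid hormones act through a pair of nuclear receptors and the chaperones that hold those receptors ready to bind hormone, and 8 genes of this machinery were followed here in the mouse dorsal raphe nucleus (DRN). The genes were taken by symbol for their place in this machinery, with earlier results of these data known: Nr3c1 and Nr3c2, which encode the glucocorticoid and mineralocorticoid receptors, the immunophilins Fkbp5 and Fkbp4, the cytosolic HSP90 genes Hsp90aa1 and Hsp90ab1, and the co-chaperones Ptges3 and Stip1. All 8 were among the 14504 genes listed, and none fell below 1040 reads in any library, so no member was lost to a filter on low values.

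The DRN is the midbrain nucleus that supplies most of the serotonin of the forebrain. Tissue came from adult male C57BL/6 mice. Intact control mice were compared with mice exposed to chronic social defeat stress (CSDS) for 30 days by aggressive CD1 residents, which the study had divided by behavior into a passive coping group (PS, dep1 in the labels) and an active coping group (AS, dep2 in the labels). Each animal was injected with saline or with 2 mg/kg dexamethasone (DEX), a synthetic agonist of the glucocorticoid receptor, and tissue was punched out of cryosections 6 h later. There were 16 libraries in 6 groups: 3 saline and 3 DEX libraries from controls, 2 saline and 3 DEX libraries from PS mice, and 3 saline and 2 DEX libraries from AS mice. Controls were kept singly before the experiment while stressed mice lived beside an aggressor, so defeat and housing cannot be told apart. The study had left out DRN samples with low Tph2, all of them from DEX-treated stressed mice. Other animals of the study, from saline and control groups too, have no library among these 16.

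Unliganded glucocorticoid receptor sits in the cytoplasm in a complex built on an HSP90 dimer. STIP1 (also called HOP) bridges HSP70 and HSP90 while the receptor is loaded, and p23, the product of Ptges3, closes the mature complex. FKBP51, the product of Fkbp5, lowers the affinity of the receptor for hormone, whereas FKBP52, the product of Fkbp4, links the complex to dynein and favors its transport to the nucleus. Fkbp5 is itself a classic target of the activated receptor, which makes a short feedback loop. The mineralocorticoid receptor uses the same chaperones and binds corticosterone more tightly, while DEX prefers the glucocorticoid receptor.

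To show where transcription of these genes starts, the 250 bases before the annotated start were read for the genes that differ most in this report and are listed in the RefSeq promoter table of GRCm38.p6, which held 5 of the 8 members (Nr3c2, Fkbp5, Fkbp4, Ptges3 and Stip1). The window of Fkbp5 was chr17:28486150-28486399 on the minus strand, that of Fkbp4 was chr6:128438657-128438906 on the minus strand, and that of Nr3c2 was chr8:76902080-76902329 on the plus strand. Capitals mark GC boxes (GGGCGG) and CCAAT boxes (CCAAT) on either strand, and the annotated start follows the last base.
Fkbp5: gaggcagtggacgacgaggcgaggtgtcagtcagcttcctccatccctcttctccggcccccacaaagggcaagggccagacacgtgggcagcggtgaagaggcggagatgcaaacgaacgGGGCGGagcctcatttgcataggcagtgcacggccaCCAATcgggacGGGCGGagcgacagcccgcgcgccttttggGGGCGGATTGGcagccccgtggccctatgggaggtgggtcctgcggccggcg
Fkbp4: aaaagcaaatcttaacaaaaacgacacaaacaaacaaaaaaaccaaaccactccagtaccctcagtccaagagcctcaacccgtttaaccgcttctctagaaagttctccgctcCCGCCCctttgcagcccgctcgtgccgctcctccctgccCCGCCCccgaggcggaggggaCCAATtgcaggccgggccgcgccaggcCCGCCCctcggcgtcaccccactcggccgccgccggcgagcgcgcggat
Nr3c2: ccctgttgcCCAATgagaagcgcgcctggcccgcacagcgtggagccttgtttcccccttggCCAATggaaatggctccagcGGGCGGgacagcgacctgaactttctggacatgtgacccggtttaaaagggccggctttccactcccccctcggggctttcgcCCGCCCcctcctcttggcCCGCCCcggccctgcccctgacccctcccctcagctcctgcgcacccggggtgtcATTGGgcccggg

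Each of these windows held 3 GC boxes, and the CCAAT box was found 2 times in Fkbp5, 1 time in Fkbp4 and 3 times in Nr3c2. GC boxes occurred in 32.7% and CCAAT boxes in 33.8% of the 32851 promoter windows of the same length. These motifs were added after the values were seen, and no GC box overlapped a CCAAT box in these windows. The glucocorticoid response element was searched on both strands as the exact palindrome (AGAACA, any 3 bases, TGTTCT), in a relaxed form (GAACA, any 3 bases, TGT, any base, C) and as the half-site AGAACA, and the heat shock element as GAA, any 2 bases, TTC, any 2 bases, GAA. None of the 5 member windows held any of the 4 forms, which were present in 0.00913%, 0.225%, 16.1% and 0.466% of all windows. The starts used for Fkbp5 and Nr3c2 lie inside the longer spans that GENCODE gives these genes, so other starts of both are not covered. Those of Fkbp4 and Ptges3 also lie a short way inside the GENCODE spans, so the last bases of these windows fall within the annotated genes.

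Values are normalized counts, that is, reads per gene divided by a size factor for each library, and a single library goes by its label, such as con_sal_102, where sal stands for saline. The libraries held from 38207157 to 62447298 reads in the listed genes. Tph2, the serotonin-synthesizing enzyme that defines the neurons of the nucleus, ranged from 91764 to 182191 and Slc6a4, the serotonin transporter, from 74627 to 129820 normalized counts. Of 15 well-known glucocorticoid target genes listed as a check of the labels, 14 rose with DEX, against 2.78% of all genes (averaged over phenotypes). The list was chosen with earlier results of these data known, so it is no independent check. The mean log2 score of the list was 0.50 to 0.80 in the 8 DEX libraries and -0.75 to -0.56 in the 8 saline libraries. Cdkn1a, which encodes the cell cycle inhibitor p21, rose by 2.77 and Sgk1, a corticosteroid-induced kinase, by 1.21 on the log2 scale (limma adjusted p 2.19e-10 and 1.03e-06). The AS library dep2_sal_40 stood apart, with the highest value of Nr3c1, Hsp90aa1, Hsp90ab1, Ptges3 and Stip1 of all 16 libraries, and results that rest on it are given without it.

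Levels were first compared between genes, which requires a scale per length. Divided by the kilobases of exon in GENCODE vM21, Hsp90ab1 was the most abundant member in saline libraries at 28141 ± 3461 (SD, n = 8) normalized counts per kilobase, followed by Hsp90aa1 at 13024 ± 1667 and Stip1 at 6938 ± 996. Fkbp4 at 3317 ± 516 and Ptges3 at 3047 ± 775 came next, and their ranges overlapped, so their order was not resolved. The receptors stood below these 5 chaperones. Nr3c1 was at 814 ± 69.8 and Nr3c2 at 266 ± 33.3 normalized counts per kilobase in saline (SD, n = 8), and their ranges (742 to 961 and 204 to 296) did not meet.

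**Figure D1:**
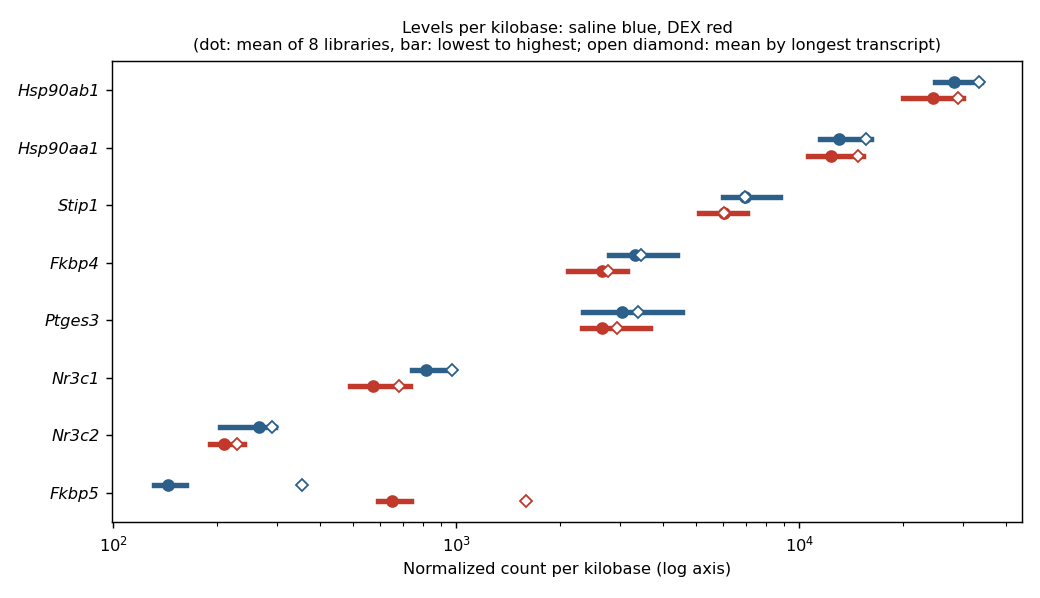
Normalized count per kilobase of exon (log axis) of the 8 genes, with the mean (dot) and the lowest to highest of 8 saline (blue) and 8 DEX (red) libraries. Open diamonds give the mean by the length of the longest transcript. Fkbp5 is the one gene whose blue and red bars lie far apart, and its place beside the receptors depends on the length used.

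The place of Fkbp5 depended on treatment and on the length assumed. With the exon length it was the lowest member in saline, at 144 ± 11.9 normalized counts per kilobase, and rose in DEX to 649 ± 56.9, where its range of 589 to 735 overlapped that of Nr3c1, 489 to 732 (SD, n = 8). GENCODE gives Fkbp5 15 transcripts and an exon length of 9468 bases, against 3858 bases for the longest single transcript. By longest transcript its mean level was 354 in saline, between 291 for Nr3c2 and 972 for Nr3c1 on that scale. In DEX it was 1593, above the 682 of Nr3c1. Under either length Fkbp5 stayed below Fkbp4 in both treatments.

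**Figure D2:**
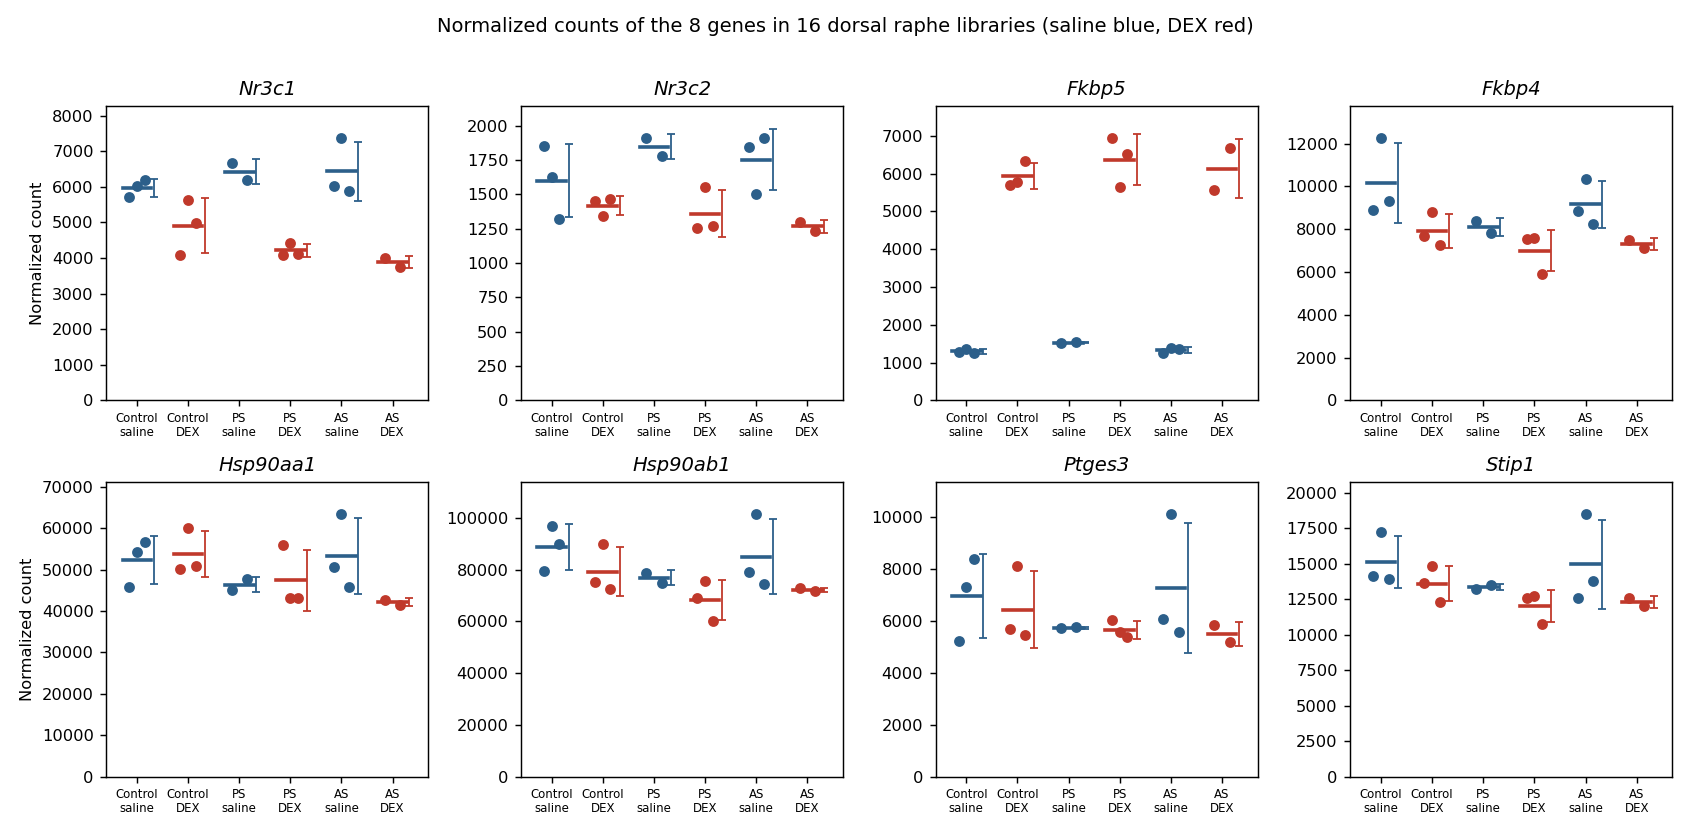
Normalized counts of each gene in the 16 libraries, by group, saline in blue and DEX in red. Points are libraries, horizontal bars are group means and vertical bars are ± 1 SD. Fkbp5 is higher in each of the 8 DEX libraries (5578 to 6958) than in any saline library (1241 to 1536), and Nr3c1 is lower in each DEX library (3760 to 5624) than in any saline library (5704 to 7386).

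The DEX effect was then examined over all 3 phenotypes, as the mean of the DEX minus saline differences within controls, PS and AS. A gene was called at a limma adjusted p under 0.1, the Benjamini-Hochberg value over all 14504 genes. Of the 8 members 4 were called, 1 higher (Fkbp5) and 3 lower (Nr3c1, Nr3c2 and Fkbp4). Among all genes 4.31% were called, 2.78% higher and 1.53% lower. The median log2 difference was -0.19 over the 8 members and 0.00 over all genes (-0.00256 before rounding). Values of DEX and saline libraries did not overlap for 2 of the 8 members, Fkbp5 and Nr3c1, against 1.88% of all genes.

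Nr3c1 (ENSMUSG00000024431.15) transcripts were lower after DEX. In saline libraries the normalized counts were 5704, 6017 and 6181 in controls (con_sal_102, con_sal_104 and con_sal_114), 6672 and 6189 in PS (dep1_sal_62 and dep1_sal_68), and 6021, 7386 and 5889 in AS (dep2_sal_14, dep2_sal_40 and dep2_sal_8). In DEX libraries they were 4095, 5624 and 4993 in controls (con_dex_101, con_dex_116 and con_dex_122), 4087, 4432 and 4122 in PS (dep1_dex_34, dep1_dex_6 and dep1_dex_64), and 4000 and 3760 in AS (dep2_dex_38 and dep2_dex_42). All 8 DEX libraries thus lay below all 8 saline libraries, with the control library con_dex_116 closest to the saline range.

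The averaged log2 difference of Nr3c1 was -0.54 (95% interval -0.70 to -0.39, adjusted p 0.000423), and back on the linear scale the gene fell by 31.3%. It was -0.29 in controls, where the gene was not called (-0.54 to -0.05, adjusted p 0.332), -0.61 in PS (-0.88 to -0.34, adjusted p 0.0596) and -0.72 in AS (-0.997 to -0.448, adjusted p 0.0202). Within phenotypes the calls were less firm than the average. The PS call was lost without any 1 of 4 PS libraries, dep1_dex_34, dep1_dex_64, dep1_sal_62 or dep1_sal_68 (adjusted p 0.211 to 0.423), and the AS call without either AS DEX library (adjusted p 0.124 without dep2_dex_38 and 0.422 without dep2_dex_42). The averaged call held with each of the 16 libraries left out (log2 -0.58 to -0.50, adjusted p 0.000228 to 0.00349).

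Whether stress altered the fall of Nr3c1 was tested as a difference of DEX effects. The effect was more negative in AS than in controls by -0.43 on the log2 scale (-0.80 to -0.06), which had an unadjusted limma p of 0.026 and an adjusted p of 0.941. The difference of PS and control effects was -0.32 (-0.68 to 0.05, adjusted p 0.9996) and that of AS and PS effects -0.11 (-0.50 to 0.28, adjusted p 0.906). None of the 24 differences of DEX effects of the 8 members was called by limma, edgeR or DESeq2, and that of Nr3c1 between AS and controls was the 1 with an unadjusted limma p under 0.05. Across all genes limma called 0% in each of the 3 contrasts, with 304, 583 and 421 genes at an unadjusted p under 0.05, while edgeR called 0 and DESeq2 0 to 1 gene.

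Some glial genes fell in the same libraries, and in bulk tissue fewer cells of a type and less RNA per cell cannot be told apart. Of 10 microglia markers 3 were lower with DEX and none higher (Cx3cr1, P2ry12 and Aif1), with a median log2 difference of -0.25 over the list. Their summed normalized counts ranged from 8251 to 9917 in DEX and from 9102 to 14229 in saline libraries, and no marker of the list was at 0 in any library. Of 10 oligodendrocyte markers 4 were lower (Opalin, Ermn, Mog and Cnp), with a median of -0.29 and sums from 134935 to 189893 in DEX and from 137505 to 225802 in saline libraries. Of 10 endothelium and mural markers 2 were lower (Slco1c1 and Tek), with a median of -0.23, and the part of these cells in the Nr3c1 result was not tested. Other glial lists went otherwise. Of 10 astrocyte markers 2 were higher and none lower (Fgfr3 by 0.55 and Gjb6 by 0.58 on the log2 scale), and of 6 oligodendrocyte precursor markers 1 was higher (Pdgfra, 0.30) and 1 lower (Sox10, -0.44). Among all genes limma called 1.53% lower and 2.78% higher in the averaged comparison, from which these marker counts come.

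When the microglia score of each library was added to the fit, the averaged Nr3c1 difference shrank to -0.35 and was no longer called (adjusted p 0.191). That score was itself lower in every DEX library (-0.34 to -0.01) than in every saline library (0.00 to 0.56), so score and treatment are nearly aligned in these samples. With the oligodendrocyte score in its place the difference was -0.57 and stayed called (adjusted p 0.0219), and with the serotonin neuron score it was -0.47 (adjusted p 0.000711). Of the 10 serotonin neuron markers 1, Htr1a, was lower with DEX (log2 -0.25, adjusted p 0.0677).

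**Figure D3:**
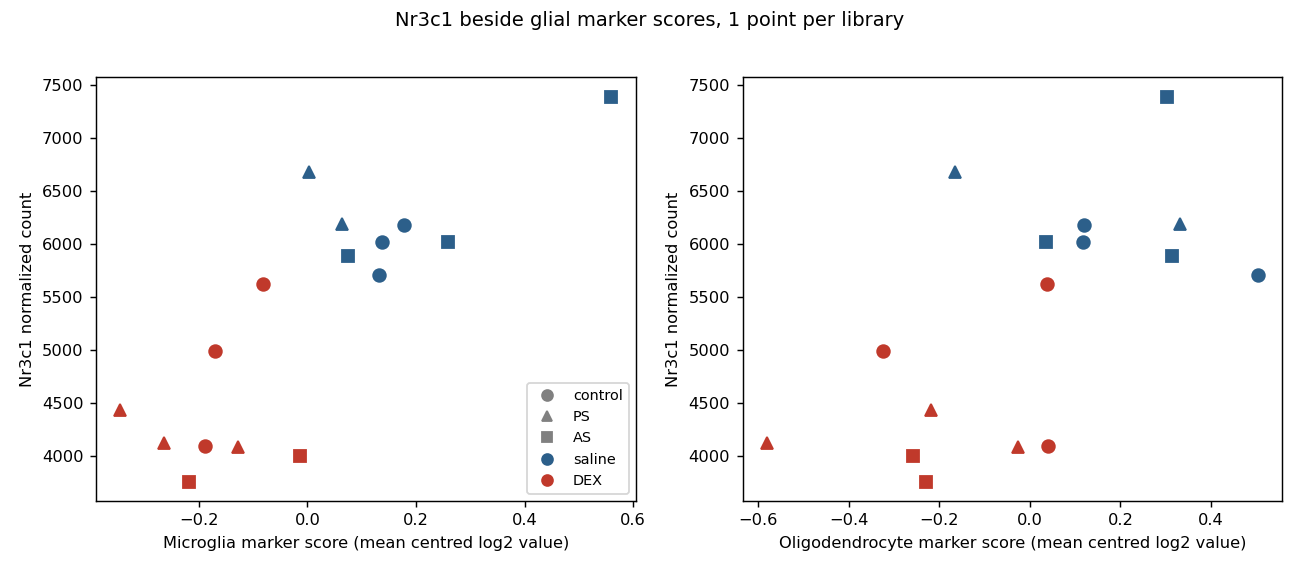
Nr3c1 normalized count (vertical axis) against the microglia (left) and oligodendrocyte (right) marker score of each library, the mean of the markers' centered log2 values. Saline is blue and DEX red, with circles for controls, triangles for PS and squares for AS. Saline and DEX libraries are separated on both axes of the left panel (microglia score -0.34 to -0.01 in DEX and 0.00 to 0.56 in saline), while the oligodendrocyte scores overlap (-0.58 to 0.04 and -0.17 to 0.50).

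Over all 16 libraries the genes most like Nr3c1 among 12855 with a mean of at least 100 were Tnfrsf11b, the decoy receptor osteoprotegerin (Pearson r 0.96), BC030500 (0.92) and Cx3cr1, the fractalkine receptor of microglia (0.90). These r values describe likeness over libraries that share the split between saline and DEX. All of the 3 were lower with DEX, with log2 differences of -0.99, -0.46 and -0.83 (limma adjusted p 0.000539, 0.00248 and 9.72e-05).

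Nr3c2 (ENSMUSG00000031618.13, chromosome 8, 76899442 to 77245012, plus strand of GRCm38) was lower after DEX as well. Its normalized counts in saline were 1852, 1626 and 1323 in controls, 1913 and 1782 in PS, and 1848, 1500 and 1910 in AS (libraries in the order given for Nr3c1). In DEX they were 1451, 1341 and 1463 in controls, 1258, 1555 and 1266 in PS, and 1301 and 1234 in AS. Saline and DEX values overlapped, because the control library con_sal_114 and the AS library dep2_sal_40 lay in the DEX range. The averaged log2 difference was -0.36 (-0.54 to -0.18, adjusted p 0.0299), with -0.16 in controls, -0.45 in PS and -0.46 in AS. None of the 3 passed within its phenotype (limma adjusted p 0.634, 0.488 and 0.329).

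The averaged Nr3c2 call was lost without the PS library dep1_sal_62 (adjusted p 0.102) or the AS library dep2_dex_42 (adjusted p 0.121), and with the oligodendrocyte score in the fit (log2 -0.33, adjusted p 0.503). With the microglia score the difference was larger, at -0.61 (adjusted p 0.0588). An exon of Gm10649 lies on the opposite strand within Nr3c2, and how the counting treated strand is not stated, so reads of the pair may be mixed. The genes most like Nr3c2 were Cxxc5 (Pearson r 0.85), the organic anion transporter Slc22a8 (0.85) and the adenylyl cyclase Adcy8 (0.84), all over 16 libraries.

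The balance of the receptors was compared as the ratio of Nr3c1 to Nr3c2 within each library. Per kilobase it was 3.13 ± 0.60 in saline and 2.73 ± 0.37 in DEX libraries (SD, n = 8). The log2 ratio changed by -0.19 with DEX, and an exact two-sided permutation of treatment within phenotype over all 2000 arrangements gave p = 0.136 (adjusted over the 3 ratios, 0.203). A change of the ratio was thus not resolved from the spread between libraries.

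Fkbp5 (ENSMUSG00000024222.17, chromosome 17, 28399094 to 28517527, minus strand) was the member with the largest response. Its normalized counts in saline were 1293, 1356 and 1241 in controls, 1519 and 1536 in PS, and 1243, 1387 and 1347 in AS. In DEX they were 5701, 5771 and 6330 in controls, 6958, 5642 and 6517 in PS, and 5578 and 6683 in AS. The lowest DEX library was thus far above the highest saline library.

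Fkbp5 had the smallest p of all 14504 genes in the averaged comparison, with a log2 difference of 2.15 (2.02 to 2.28, adjusted p 7.70e-11), or 4.44-fold. The DEX effects of the 3 phenotypes lay close together, at 2.19 in controls, 2.05 in PS and 2.204 in AS. Their differences were -0.14 for PS minus control (-0.45 to 0.18), 0.01 for AS minus control (-0.30 to 0.33) and 0.15 for AS minus PS (-0.18 to 0.48), none of them called by limma (adjusted p 0.869 or more). Differences between phenotypes within these intervals were not resolved. Adding the microglia, oligodendrocyte or serotonin neuron score left the averaged difference at 2.18, 2.16 and 2.17.

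The genes most like Fkbp5 over the 16 libraries were Cdkn1a (Pearson r 0.99), the lipid droplet gene Plin4 (0.99) and Nxf3 (0.98), an RNA export factor gene. Here too the r values describe likeness over libraries that share the split between saline and DEX, and Spearman rho was 0.89, 0.78 and 0.87. The averaged DEX differences of these genes were 2.77, 4.38 and 2.92 on the log2 scale. Plin4 and Cdkn1a also stood in the list of target genes used to check the labels.

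Fkbp4 (ENSMUSG00000030357.10, chromosome 6, 128429735 to 128438677, minus strand) was lower after DEX, by a small margin. Its normalized counts in saline were 8895, 12288 and 9309 in controls, 8407 and 7801 in PS, and 8867, 10366 and 8239 in AS. In DEX they were 7706, 8810 and 7286 in controls, 7541, 7577 and 5899 in PS, and 7515 and 7108 in AS. The treatments overlapped through the control library con_dex_116, the highest of the DEX values. The averaged log2 difference was -0.29 (-0.48 to -0.11), with an adjusted p of 0.0985, just inside the threshold. The call was not stable: it was lost in 18 of 29 alternatives, among them edgeR (adjusted p 0.108), the microglia score (log2 -0.10, adjusted p 0.743) and the serotonin neuron score (log2 -0.20, adjusted p 0.257), while DESeq2 kept it. It was also lost without the AS library dep2_sal_40 (log2 -0.26, limma adjusted p 0.147).

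The ratio of Fkbp5 to Fkbp4 transcripts set the opposing immunophilins against each other within each library. Per kilobase it was 0.0444 ± 0.0083 in saline and 0.248 ± 0.043 in DEX libraries (SD, n = 8), without overlap. The log2 ratio rose by 2.44, and by 2.54, 2.27 and 2.52 in controls, PS and AS. The exact two-sided permutation p was 0.0005, the smallest that the 2000 arrangements allow (adjusted 0.0015). The rise of Fkbp5 is part of this ratio, so it is no separate evidence for a fall of Fkbp4.

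**Figure D4:**
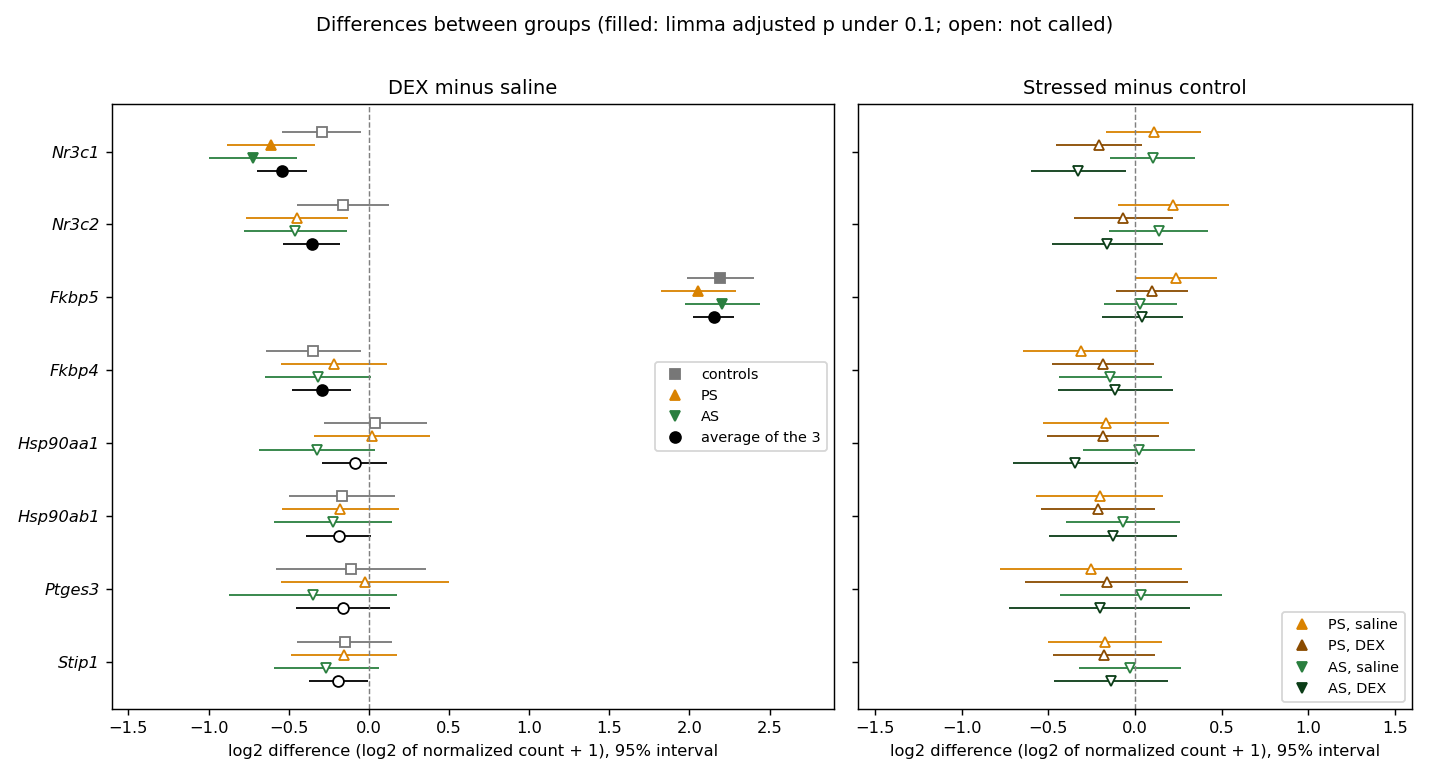
Log2 differences of the 8 genes with 95% intervals from limma, DEX minus saline (left) and stressed minus control (right). Filled symbols passed an adjusted p of 0.1. On the left Fkbp5 is filled in every comparison, Nr3c1 in PS, AS and the average, and Nr3c2 and Fkbp4 in the average alone. On the right every symbol is open.

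The HSP90 genes were not called. Hsp90aa1 (ENSMUSG00000021270.13, chromosome 12, 110690605 to 110702728, minus strand), the stress-inducible form, had normalized counts of 45741, 54265 and 56753 in control, 45103 and 47651 in PS, and 50728, 63507 and 45813 in AS saline libraries. In DEX it had 50103, 60160 and 50906 in controls, 55956, 43248 and 43037 in PS, and 42787 and 41569 in AS. The treatments overlapped widely, and the averaged log2 difference was -0.09 (-0.29 to 0.11, adjusted p 0.679). Hsp90ab1 (ENSMUSG00000023944.14, chromosome 17, 45567775 to 45573271, minus strand), the constitutive form, ranged from 74340 to 101566 in saline (median 79355) and from 60205 to 89910 in DEX (median 72568). Its averaged log2 difference was -0.19 (-0.39 to 0.02, adjusted p 0.396).

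The ratio of Hsp90aa1 to Hsp90ab1 was 0.463 ± 0.025 per kilobase in saline and 0.506 ± 0.063 in DEX libraries (SD, n = 8). Its log2 change was 0.10 (exact permutation p = 0.207, adjusted 0.207), and it was 0.21 for controls, 0.20 for PS and -0.10 for AS. The genes most like Hsp90aa1 over 16 libraries were Idi1, an enzyme of isoprenoid synthesis, Mrps22 of the mitochondrial ribosome and Dynlt3, a dynein light chain (Pearson r 0.95 each), and none of them was called with DEX.

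The co-chaperones Stip1 and Ptges3 were not called either. Stip1 (ENSMUSG00000024966.9, chromosome 19, 7020702 to 7039967, minus strand) ranged from 12588 to 18527 in saline (median 13887) and from 10746 to 14820 in DEX (median 12581), and its averaged log2 difference was -0.19 (-0.37 to -0.01, limma adjusted p 0.339). Ptges3 (ENSMUSG00000071072.12, chromosome 10, 128058954 to 128077272, plus strand) ranged from 5197 to 10110 in saline (median 5898) and from 5162 to 8112 in DEX (median 5619), and its averaged log2 difference was -0.16 (-0.45 to 0.13, adjusted p 0.598). A pseudogene named after Ptges3 is annotated, so its counts are less certain. Pseudogenes were looked for by name alone, and those under other names were not examined for any member. The AS library dep2_sal_40 and the control library con_dex_116 gave the highest value of each treatment for both genes.

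Within phenotypes, DEX called 1 member in controls (Fkbp5) against 1.26% of all genes, and 2 members (Fkbp5 and Nr3c1) in PS and in AS, against 0.703% and 0.689%. In AS the log2 differences of Hsp90aa1, Hsp90ab1, Ptges3 and Stip1 were -0.33, -0.22, -0.35 and -0.26, and none of these was called (limma adjusted p 0.545 to 0.609). Without the AS library dep2_sal_40 they were smaller, at -0.19, -0.09, -0.08 and -0.10.

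To ask whether stress itself moved the receptor machinery, PS and AS mice were compared with controls under saline, under DEX and averaged over both, and with each other. The comparisons with controls share the control libraries. The comparisons under DEX and under saline also enter their average. None of the 64 differences of the 8 members in these 8 comparisons was called by limma, edgeR or DESeq2, and 4 had an unadjusted limma p under 0.05. They ranged from -0.34 to 0.29 on the log2 scale. The percentage of all genes called by limma was 0 in 6 of the 8 comparisons, 0.00689% for AS against control under DEX and 0.0138% for AS against control averaged over treatments. At an unadjusted p under 0.05 the percentage was 1.23 to 7.67 over the 8 comparisons, and edgeR called 0 to 7 and DESeq2 0 to 37 genes.

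The 4 differences with a small unadjusted p concerned 3 genes. Fkbp5 had normalized counts of 1519 and 1536 in PS against 1241 to 1356 in control saline libraries, a log2 difference of 0.24 (0.00 to 0.47, p 0.0472, adjusted p 0.571 by limma), and differed by 0.17 averaged over saline and DEX (adjusted p 0.557). Both PS values lay above the 3 control values, and in this comparison values did not overlap for 28.5% of all genes. Fkbp4 averaged over both treatments was -0.25 in PS against controls (-0.47 to -0.03, adjusted p 0.557). Nr3c1 under DEX was -0.33 in AS against controls (-0.60 to -0.05, adjusted p 0.990). None of these met the threshold.

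For the receptors under saline the intervals were -0.17 to 0.38 (PS) and -0.14 to 0.35 (AS) for Nr3c1, around log2 differences of 0.11 and 0.10 from controls. For Nr3c2 they were -0.10 to 0.54 and -0.15 to 0.42, around 0.22 and 0.14. None of these 4 differences was called by limma.

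Other genes of the pathway, listed by role, were mostly not called under DEX. Of 25 further chaperones and co-chaperones of steroid receptor complexes 1 was called, Hdac6, a deacetylase that acts on HSP90, which was higher (log2 0.50, SE 0.08, limma adjusted p 0.00218). The median log2 difference of this list was -0.07, and 4.31% of all genes were called in this comparison. Of 24 receptor coregulators 1 was called, Pias1, a SUMO ligase, also higher (log2 0.24, SE 0.06, adjusted p 0.0501). With edgeR 1 gene of each list was called, and with DESeq2 1 chaperone and 2 coregulators. An unadjusted limma p under 0.05 was found for 5 of the 25 chaperones and 5 of the 24 coregulators, against 14% of all genes. Among 8 listed genes of steroid supply and export none was called by limma, edgeR or DESeq2 and none had an unadjusted p under 0.05, with log2 differences of -0.25 for Hsd11b1, which regenerates corticosterone from its inert form, 0.26 for H6pd, its cofactor supply, and 0.08 for Abcb1a, the drug efflux pump.

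Other receptors were also examined. Of 9 further genes listed as steroid or HSP90-bound receptors and their partners none was called by any of the 3 tools, and 1 had an unadjusted limma p under 0.05. The estrogen receptor genes Esr1 and Esr2 differed by 0.00 and -0.17, and the progesterone receptor gene Pgr by 0.14 on the log2 scale. Of 8 heat shock factor and heat shock genes none was called by any of the 3 tools and none had an unadjusted p under 0.05, and Hsf1, the main heat shock transcription factor, differed by 0.17. Over all genes limma called 4.31% in this comparison, and 14% had an unadjusted p under 0.05. In lists this short, such counts do not set the genes apart from other genes.

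Finally, the members were compared with each other across single libraries after the mean of each group had been subtracted, which removes stress and DEX. Of 28 pairs 2 were correlated at an adjusted p under 0.05 in an exact two-sided permutation within groups (5184 arrangements). Fkbp4 and Hsp90ab1 had Pearson r 0.88 and Spearman rho 0.88 (exact permutation p 0.000193 and 0.000386, adjusted 0.0054 and 0.0108), and Hsp90aa1 and Ptges3 had r 0.88 and rho 0.89 (p 0.000965 each, adjusted 0.0135 each). Without the 2 libraries farthest from the median of the first gene, r was 0.89 and 0.91, and without the AS library dep2_sal_40 it was 0.88 and 0.83. The 10 pairs among the 5 chaperones Fkbp4, Hsp90aa1, Hsp90ab1, Ptges3 and Stip1 all had positive r, from 0.63 to 0.88 (median 0.78). Without dep2_sal_40 the lowest of these was 0.49, and with the serotonin neuron and oligodendrocyte scores removed the 10 values were 0.23 to 0.83 (median 0.53). No r of other gene pairs was computed on this scale, so whether the chaperones vary together more than other genes was not tested. Before group means were subtracted, Hsp90aa1 had r 0.95 with each of Idi1, Mrps22 and Dynlt3.

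**Figure D5:**
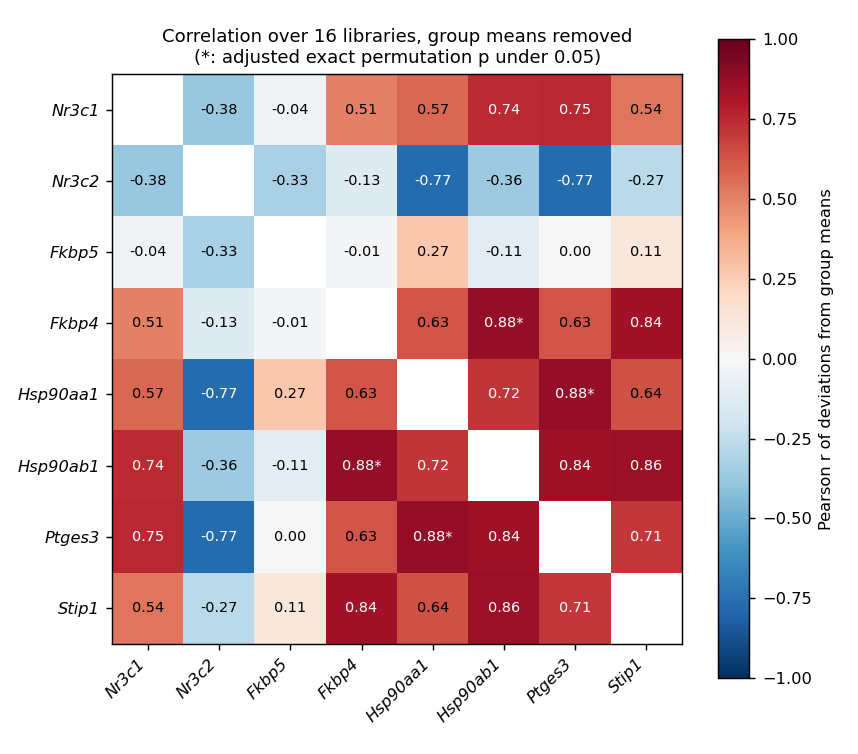
Pearson r between the 8 genes over 16 libraries after subtracting group means, from -1 (blue) to 1 (red). Asterisks mark the 2 pairs with an adjusted exact permutation p under 0.05. The 5 chaperones other than Fkbp5 form a red block (0.63 to 0.88), and Fkbp5 lies between -0.33 and 0.27 with every other gene.

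None of the pairs of a receptor with a chaperone passed the threshold by r. Nr3c1 had positive r with each of the 5 chaperones other than Fkbp5, from 0.51 to 0.75, and Nr3c2 had negative r, from -0.77 to -0.13. Without dep2_sal_40 the r of Nr3c2 was 0.02 with Fkbp4 and -0.01 with Stip1. By rank, Nr3c1 with Hsp90ab1 and Fkbp4 with Stip1 also passed (rho 0.79 and 0.85, adjusted exact permutation p 0.0459 each). By Pearson's r, Nr3c1 had r 0.74 with Hsp90ab1 and 0.75 with Ptges3 (adjusted exact permutation p 0.0540 each), and Nr3c2 had r -0.77 with both Hsp90aa1 and Ptges3 (adjusted 0.0540 and 0.0529). Without dep2_sal_40 these r values were 0.66 and 0.66 for Nr3c1 and -0.71 and -0.71 for Nr3c2. The 2 receptors had r -0.38 with each other (adjusted 0.233). After the serotonin neuron and oligodendrocyte scores were also removed, 4 pairs passed. They were Nr3c2 with Hsp90aa1 (r -0.91, adjusted permutation p 0.0054) and with Ptges3 (r -0.86, adjusted permutation p 0.0288), and Hsp90ab1 and Hsp90aa1 each with Ptges3. The permutation is not exact for these values, because the scores were removed before the values were permuted, and its p-values may be too small. Fkbp4 and Hsp90ab1 then had r 0.68 (adjusted 0.280) and no longer passed. The r values of Fkbp5 with the other members lay between -0.33 and 0.27.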

How the data were processed

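PolyA RNA was sequenced paired-end from strand-specific libraries. Per the labels and the methods of the study, the authors trimmed reads with fastp 0.20.1, aligned them with HISAT2 2.2.1 to GRCm38 (mm10), counted them per gene with featureCounts (Subread 2.0, GENCODE vM22) and deposited a signal, normalized counts made with the size factors of DESeq2 1.36.0. Whether counting used strand is not stated. The labels and the methods name different sequencers for this tissue. The authors' tables of comparisons (log2 fold changes and p-values) were not used. In every library 100% of values came out as whole reads (tolerance 0.001), which gave the depths, and the count tests were run on those reads. DESeq2 on these reads called 437, 187 and 274 genes with DEX in controls, PS and AS. The study reports the same numbers for the DRN. The stated minimum of 10 reads per sample was not met by 973 listed genes, and all 14504 were tested.

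The main test was limma 3.58.1 on log2(normalized count + 1), with 6 group means, eBayes with trend (10 residual and 3.88 prior degrees of freedom), two-sided, and Benjamini-Hochberg adjustment over all genes. Differences on this scale understate changes of low genes. A score is the mean of a list's centered log2 values. Exon lengths and positions came from GENCODE vM21, which matched 14499 of the genes (99.97%), and promoters from RefSeq. The position of Nr3c1 is not reported here. Alternatives were pseudocounts, filters, TMM and quantile scaling, robust eBayes, library weights, marker scores as covariates, edgeR 4.0.16, DESeq2 1.42.0 and leaving out each library. The limma code and the permutation code were tested on simulated data. The members and lists were chosen with earlier results of these data known, and the microglia covariate was added after seeing the data. Named genes were the 8 members, up to 5 called genes of each pathway list and the 3 genes most similar to each of 4 members. Other genes were named after their values were seen. Per the methods each library came from 1 animal, so p-values measure the spread between animals.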

Additional observations from a re-analysis of the deposited data

How the results depend on the processing

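No paired analysis was possible because the animal numbers in the labels are not shared between groups. Each result was recomputed in 16 fits that left out 1 library and in up to 14 other alternatives. The Fkbp5 calls held in all of these, within each phenotype and in the average. The sign changed in 0 of 266 alternative values of called differences and in 146 of 3326 values of uncalled ones. With the oligodendrocyte score or the microglia score in the fit, the members called with DEX numbered 1 in each of PS and AS and 2 in the average. Fitting the compared groups alone left 1 in AS, and library weights gave 4 in AS. Without 1 library the members called ranged from 1 to 2 in PS and likewise from 1 to 2 in AS, and from 2 to 4 in the average. The cause was not tested. Library weights were the 1 setting that added calls, Nr3c2 in PS and AS and Fkbp4 in AS. The averaged calls were lost in 1 of 29 alternatives for Nr3c1, 3 of 29 for Nr3c2 and 18 of 29 for Fkbp4, and for Fkbp4 TMM scaling gave an adjusted p of 0.1003. The number of correlated pairs was 4 after the serotonin neuron and oligodendrocyte scores were removed, where the permutation is not exact, and 2 under TMM scaling. Over all genes, the calls in the averaged DEX comparison numbered 625, from 356 to 713 with 1 library left out and from 153 to 1328 under the other alternatives. In controls they numbered 183, from 72 to 289 and from 62 to 437 in turn. The counts of single phenotypes were least steady in AS, from 11 to 118 and from 6 to 1402 around the reported 100. Each member had at least 1040 reads in every library, and an effect of depth was not tested.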
